A study of Homo sapiens with 8 samples.

Results

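Open chromatin at the start sites of 10 immediate early genes was described in 8 salt fractions of 293T chromatin. The genes were JUN, JUNB and JUND, FOS, FOSL1 and FOSL2, ATF3, EGR1, MYC and KLF6. Each was represented by the peaks that overlapped a window of 5 kb on either side of its hg19 start site by at least 1 bp. Together the 10 windows held 12 of the 36845 regions that were obtained when the peaks of all libraries were merged. The material was ATAC-seq, in which a transposase inserts adapters into accessible DNA, from 293T cells, a human embryonic kidney line with the SV40 large T antigen. All groups came from crosslinked, permeabilised and tagmented cells, and the labels give no other treatment. The tagmented mixture was incubated with Q Sepharose, a strong anion exchanger, which gave a flow-through (FT) and successive washes at 20, 100, 200, 300, 500, 700 and 1000 mM NaCl (G20 to G1000). There was 1 library for each of the 8 fractions and no replicate, so every test below is a comparison of single libraries. The design text asks how accessibility and factor motifs differ between fractions. Peaks of the G200 library are named G50_200 in their file, so its salt range is uncertain.

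AP-1 is a dimeric transcription factor. JUN proteins pair with each other, with FOS proteins or with ATF proteins, and FOS proteins need such a partner. The pairs bind a short palindromic site, and pairs with ATF proteins also bind the cyclic AMP response element. Many of these genes are immediate early genes, whose transcription rises within minutes of growth factor or stress signals without new protein synthesis, and several are known for promoters that are already open before the signal. In FOS and EGR1 the signal acts largely through serum response elements, whose core is the CArG box. JUN is known for an AP-1-like site in its own promoter that binds JUN and ATF2.

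RefSeq promoter sequences (GRCh38.p14, 250 bases before to 50 after a start) were at hand for 8 of the 10 genes, all but FOSL1 and MYC. The 250 bases before the start are printed for the 3 genes called in every library (JUN, JUND, EGR1), for FOS, and for JUNB, whose start site was called in none. Capitals mark the matches named after the sequences. The RefSeq start and the hg19 start site need not be the same base, so no position in these sequences was set against a summit.
JUN, chr1:58784048-58784297 (-): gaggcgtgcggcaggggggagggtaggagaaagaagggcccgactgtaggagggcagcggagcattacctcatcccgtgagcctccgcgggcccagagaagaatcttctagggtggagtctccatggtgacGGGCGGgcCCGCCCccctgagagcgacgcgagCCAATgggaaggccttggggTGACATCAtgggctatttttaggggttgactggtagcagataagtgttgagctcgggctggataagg
JUND, chr19:18281623-18281872 (-): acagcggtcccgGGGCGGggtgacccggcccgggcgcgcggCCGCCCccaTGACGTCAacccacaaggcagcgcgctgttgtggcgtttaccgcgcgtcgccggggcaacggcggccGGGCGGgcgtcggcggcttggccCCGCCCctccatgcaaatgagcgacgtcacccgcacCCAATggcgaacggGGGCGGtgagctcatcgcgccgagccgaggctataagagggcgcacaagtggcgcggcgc
EGR1, chr5:138465229-138465478 (+): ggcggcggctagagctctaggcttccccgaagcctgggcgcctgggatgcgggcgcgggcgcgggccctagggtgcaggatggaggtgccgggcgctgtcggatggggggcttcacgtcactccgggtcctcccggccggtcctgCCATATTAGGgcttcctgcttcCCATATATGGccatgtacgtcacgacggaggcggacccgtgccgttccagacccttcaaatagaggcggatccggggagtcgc
FOS, chr14:75278578-75278827 (+): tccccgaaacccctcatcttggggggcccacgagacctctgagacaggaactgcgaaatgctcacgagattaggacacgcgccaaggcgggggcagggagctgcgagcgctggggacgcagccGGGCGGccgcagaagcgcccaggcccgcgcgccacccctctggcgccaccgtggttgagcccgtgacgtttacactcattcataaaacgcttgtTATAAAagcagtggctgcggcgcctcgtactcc
JUNB, chr19:12791236-12791485 (+): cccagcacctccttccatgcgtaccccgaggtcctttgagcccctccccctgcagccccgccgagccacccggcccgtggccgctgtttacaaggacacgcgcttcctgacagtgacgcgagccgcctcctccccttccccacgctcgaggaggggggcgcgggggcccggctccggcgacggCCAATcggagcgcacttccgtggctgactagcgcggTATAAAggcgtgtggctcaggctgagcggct

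The motifs searched on both strands were the AP-1 site TGANTCA, the cyclic AMP response element TGACGTCA, the CArG box, the EGR1 site GCGTGGGCG, and GGGCGG, known as the GC box. The CCAAT box and the TATA box, searched as TATAAA, were included. A further one, TGACATCA, the known AP-1-like site of the JUN promoter, was added after the sequences had been seen. The EGR1 site and the GC box can share bases, and the other motifs were counted independently of each other. JUN held TGACATCA 67 bases before its start, and so did KLF6 (172 bases before) and the upstream start of ATF3 (123 bases before), against 2.61% of the 35116 promoters of the table. The full TGACGTCA was found in JUND alone among the 8 genes, 200 bases before its start, against 1.85% of all promoters. EGR1 held 2 CArG boxes, beginning 105 and 83 bases before the start, where 1.29% of all promoters held any. TGANTCA was found in FOSL2 only, beginning 4 bases after the start, against 7.71% of all promoters, and no member held GCGTGGGCG. The GC box was in 6 of the 9 promoters of the 8 genes (ATF3 has 2), with 6 copies in JUND, and in 45.0% of all promoters. TATAAA stood 33 bases before the start in FOS, 31 bases before it in JUNB and 230 bases before the second start of ATF3, and 11.5% of all promoters held it. CCAAT was in 5 of the 9 promoters and in 34.6% of all promoters. A match is a run of letters and not a measured binding site. G and C made up 62.0% of the JUN promoter and between 64.7% (FOS) and 77.0% (JUND) of those of JUNB, JUND, FOS, FOSL2, EGR1 and KLF6, against a median of 58.7% over the table. The 2 ATF3 promoters were lower, with 48.0% and 46.3%. JUNB, which had no peak at its start site, had 71.0%, inside the range of JUN, JUND and EGR1, the genes called in all 8 libraries.

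Peaks were found near all 10 genes in some library, and in 53 of the 80 gene and library pairs. The counts by library were uneven. FT and G20 each held peaks near 9 genes, G100, G300 and G500 near 7 each, G200 near 6, G700 near 5 and G1000 near 3. The merged regions as a whole differed between the libraries too, since FT called 61.6% of them, G20 called 52.5%, G100 called 35.8%, G200 called 43.2%, G300 called 53.3%, G500 called 28.1%, G700 called 21.9% and G1000 called 27.7%. Of the 12 regions, 3 (25.0%) were called in all 8 libraries, against 11.5% of all merged regions. A further 3 were called in 6 or 7 libraries, so that 6 of 12 (50.0%) reached at least 6, against 23.6% of all. Another 4 (33.3%) were called in 1 library, against 40.7% of all. When each list was held to its 8102 strongest peaks, the length of the shortest list, FT held 5 of the genes, G20 held 4 and G100 held 6, so the lead of FT and G20 was gone, while JUN, JUND and EGR1 were still called in all 8. When a peak had to span the start site, 30 pairs were left and JUN alone was called in all 8. The shares above rest on 12 regions chosen as promoters, and the share among the promoters of other genes was not analysed here.

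**Figure D1:**
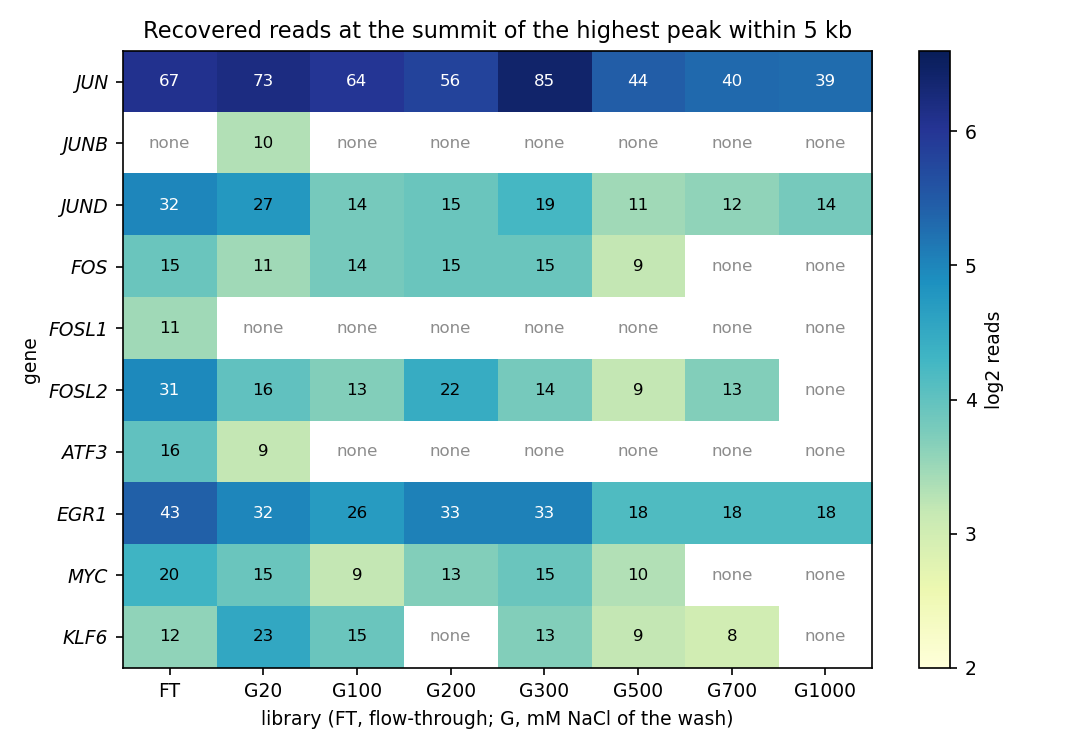
Reads recovered at the summit of the highest peak within 5 kb of each start site, by gene (rows) and library (columns). The colour gives log2 reads, the printed figure the reads themselves, and "none" means that no peak was called. JUN has 39 to 85 reads in the 8 libraries, while JUNB, FOSL1 and ATF3 are blank in 6 or more of them.

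At JUN, JUND, FOS, FOSL2, EGR1, MYC and KLF6 most summits lay just upstream of the start site, while JUNB, FOSL1 and ATF3 had no upstream summit. The counts below take the same 12 regions again in each library that called them, so the peaks are not independent. The share at other promoters was not analysed here. Of the 54 peaks, 50 had a summit within 1 kb of the start site, and 48 of these lay on the upstream side. Only 30 (55.6%) reached across the start site itself. The exceptions beyond 1 kb were the JUNB peak, both ATF3 peaks and the KLF6 peak of G500, all of them downstream. The map of peaks around the start sites shows each of them.

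**Figure D2:**
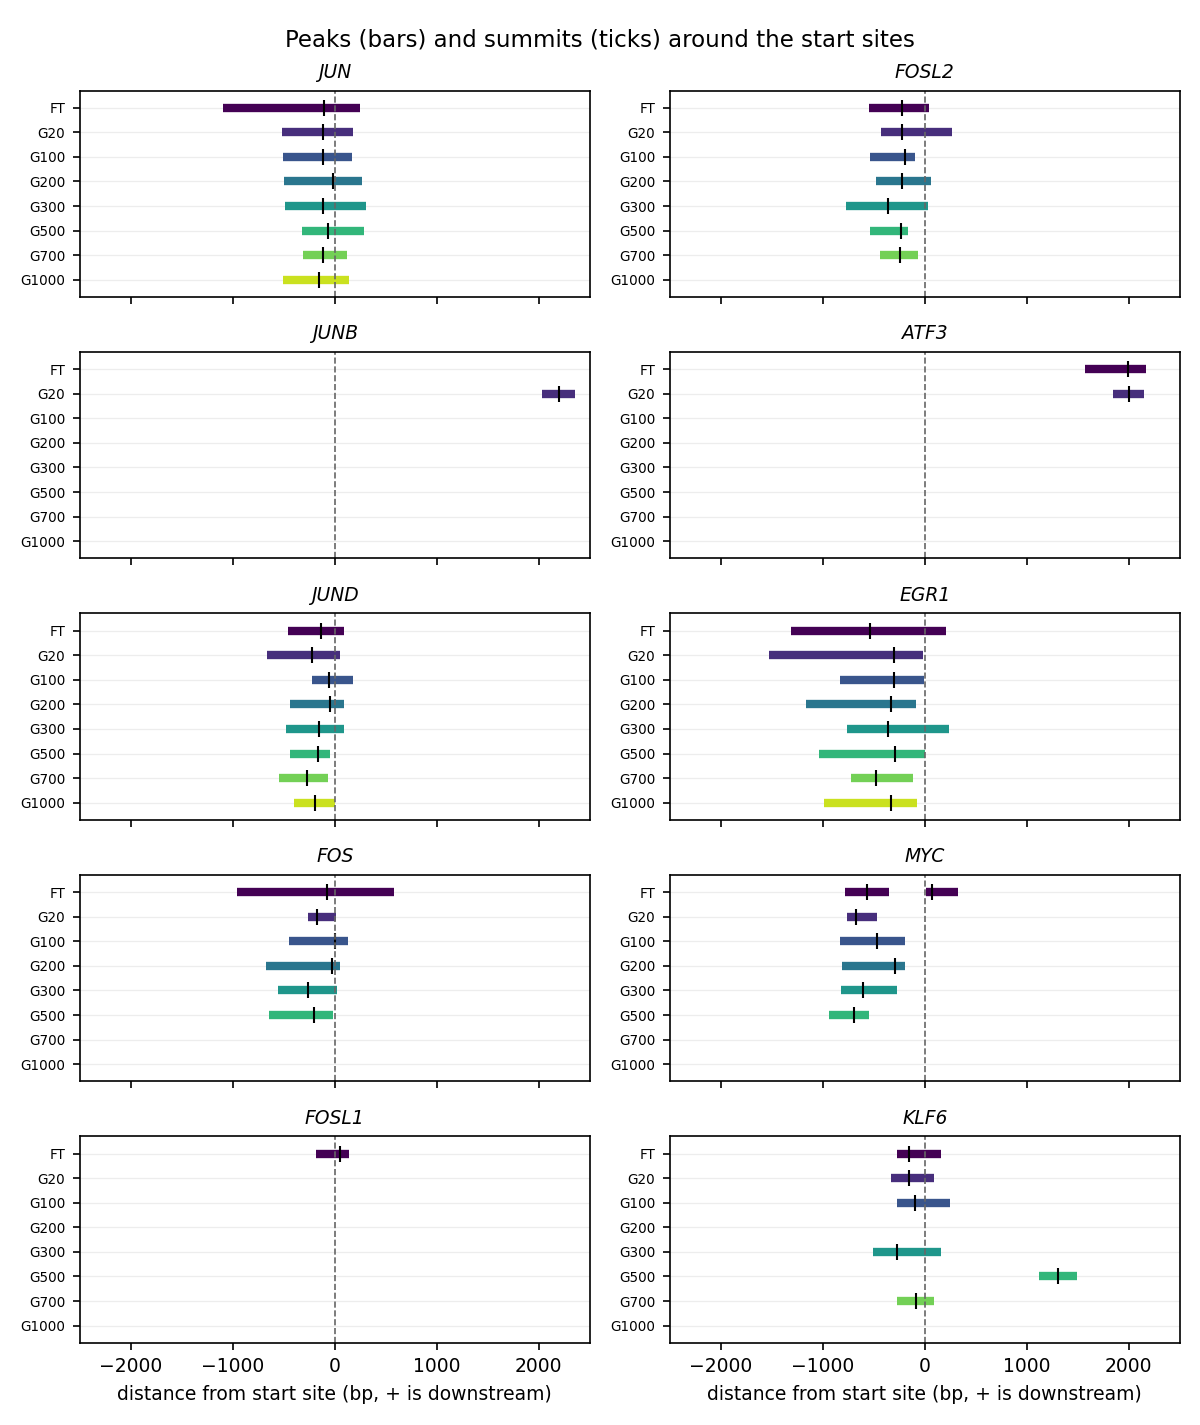
Extent (bars) and summit (ticks) of each peak by library, in bp from the start site, with transcription running to the right and colours separating the libraries. JUN peaks cross the start site in all 8 libraries, EGR1 peaks extend up to 1527 bp upstream, and MYC peaks lie upstream except for a second FT peak.

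JUN, the AP-1 subunit that binds DNA as a dimer with itself or with FOS, had the peak of highest −log10 q among the 10 genes in every library. Its region was chr1:59249479-59250882. The read number over each summit was solved from the fold and the p of the peak, and it may count fragments. At the JUN summit FT gave 67 reads, G20 gave 73, G100 gave 64, G200 gave 56, G300 gave 85, G500 gave 44, G700 gave 40 and G1000 gave 39. The 3 libraries of highest salt had the fewest reads, and these 3 also had fewer reads than the other 5 over ordinary shared regions (58858 to 70543, against 81549 to 125907). The fold enrichment over the local background, the authors' value, ran from 7.61 in FT to 10.1 in G100. That local background was itself high, 11.99 (FT) to 22.3 (G200) times the genome background of the same library, where the median peak of a list had 2.54 to 3.74 times. Within its own list the JUN peak was exceeded in −log10 q, the peak caller's significance after adjustment, by 0.574% (G100) to 3.35% (G1000) of the peaks. The summit lay 118 bp upstream of the start site in G20, G100 and G300, 117 bp in G700, 108 bp in FT, 155 bp in G1000, 63 bp in G500 and 17 bp in G200. Its width was 1341 bp in FT and 434 bp in G700, with 602 to 791 bp in the other 6.

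JUND, the JUN protein that many resting cells already hold, was likewise called in all 8 libraries, at chr19:18392288-18393130. Its summit reads were 32 for FT, 27 for G20, 14 for G100, 15 for G200, 19 for G300, 11 for G500, 12 for G700 and 14 for G1000. FT and G20 were thus highest, and the other 6 lay within 11 to 19 reads. Peaks of the first 5 fractions (FT to G300) crossed the start site, ending between 51 bp (G20) and 178 bp (G100) downstream of it. Those of G500, G700 and G1000 stopped 46, 72 and 2 bp short of it. The lists of G500, G700 and G1000 also had the narrowest peaks by median, 418 to 450 bp against 460 to 527 bp in the first 5 fractions. Whether the extent at JUND goes with salt or with read number was not tested. The summit was 46 bp (G200) to 270 bp (G700) upstream. JUND ranked lower than JUN, with 12.2% (FT) to 47.5% (G500) of the list having a higher −log10 q.

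JUNB, which can act against JUN in growth control, had no peak at its start site in any library. The only peak in its window was in G20, at chr19:12904336-12904667, which is 2026 to 2357 bp downstream of the start. It had 10 reads, a fold enrichment of 3.99 and a −log10 q of 2.86, and 86.6% of the G20 peaks were stronger.

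Of the FOS proteins, FOS itself was called in 6 libraries, at chr14:75744526-75746057. FT, G200 and G300 had 15 reads each, G100 had 14, G20 had 11 and G500 had 9. G700 and G1000 had no FOS peak. The reads of the 6 calling libraries, scaled to ordinary regions, would give 7.66 reads in G700 and 9.18 in G1000. In those lists 26.9% and 41.6% of the called peaks had fewer reads than that, so peaks with such read numbers could be called. Such expected values, here and at the genes below, come from libraries that passed the peak threshold and are too high for that reason. The absence of a call therefore does not show less open chromatin there. The summit moved between 2 bp (G100) and 265 bp (G300) upstream of the start, and the width between 274 bp in G20 and 1532 bp in FT, which 0.522% of the FT peaks exceeded.

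FOSL2, a FOS protein with no strong activation domain of its own, was called in 7 libraries at chr2:28615009-28616046. FT had 31 reads, G20 had 16, G100 had 13, G200 had 22, G300 had 14, G500 had 9 and G700 had 13. FT and G200 stood above the others, with fold enrichments of 7.996 and 7.23 beside 4.60 to 6.03 in the other 5. The summit kept its place better than that of FOS, 194 to 246 bp upstream in 6 libraries and 359 bp in G300. G1000 had no peak, although the other 7 libraries would give 12.5 reads there and 63.2% of the G1000 peaks had fewer.

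FOSL1, the other FOS-related protein, was called in FT alone, at chr11:65667859-65668186. It had 11 reads, a fold enrichment of 5.14 and a −log10 q of 4.83, and 60.8% of the FT peaks were stronger. Scaled to the other libraries this would be 5.14 (G700) to 10.6 reads (G300), where the lowest peak of those lists had 3 or 4 reads. The share of called peaks with fewer reads than expected ran from 8.63% (G700) to 40.7% (G20). These expected values rest on FT alone, so the missing calls do not show less open chromatin there.

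ATF3, a stress-induced partner of JUN proteins, had a peak in FT and G20 only, at chr1:212740249-212740843, with 16 and 9 reads. Both summits lay downstream of the start site, at 1988 bp in FT and 1998 bp in G20. RefSeq lists 2 promoters for ATF3, 49.6 kb apart, so that the window covers at most 1 of them and the other was not analysed here.

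EGR1, a zinc finger factor induced by serum, had the widest peaks of the 10 genes by median (1020 bp, beside 687 bp for JUN). Its region, chr5:137799654-137801419, was called in all 8 libraries. FT had 43 reads, G200 and G300 had 33 each, G20 had 32, G100 had 26, and G500, G700 and G1000 had 18 each. As with JUN, the 3 libraries of highest salt had the fewest reads. The summit lay 289 to 361 bp upstream of the start in 6 libraries, 482 bp in G700 and 541 bp in FT. The peak was 1522 bp wide in FT and 1511 bp in G20, where 0.561% and 0.154% of the peaks were wider, and 615 to 1079 bp wide in the other 6. It crossed the start site in FT and G300 and ended 2 to 112 bp before it in the other 6. In strength it came next to JUN, with 5.89% (G200) to 25.3% (G500) of the list having a higher −log10 q.

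MYC, the growth regulator, was called in 6 libraries at chr8:128747378-128748120, wholly upstream of its start site. At the highest point of this region FT had 18 reads, G20 and G300 had 15 each, G200 had 13, G500 had 10 and G100 had 9. FT had a second peak with 20 reads, from 12 to 325 bp downstream of the start. Fold enrichments were low, at 3.51 (G300) to 5.24 (G200), and the local background was 5.76 (G100) to 7.16 (G300) times the genome background. In G100 its −log10 q was 1.90, and 96.8% of the list was stronger. G700 and G1000 had no peak, where 7.75 and 9.29 reads would be expected. The G100 peak, with 9 reads, was among the weakest of its list, so these missing calls do not show less open chromatin.

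KLF6, a zinc finger factor of the Krüppel-like family, was called at its start site in 5 libraries, at chr10:3827227-3827982. FT had 12 reads, G20 had 23, G100 had 15, G300 had 13 and G700 had 8. G20 stood highest, with a fold enrichment of 8.06 beside 3.99 to 5.71 in the other 4, and 16.7% of its list was stronger, against 38.8% or more elsewhere. G500 had a separate peak with 9 reads instead, 1117 to 1493 bp downstream of the start. Neither G200 nor G1000 had a peak in the window, where the 5 libraries would give 12.9 and 9.92 reads.

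**Figure D3:**
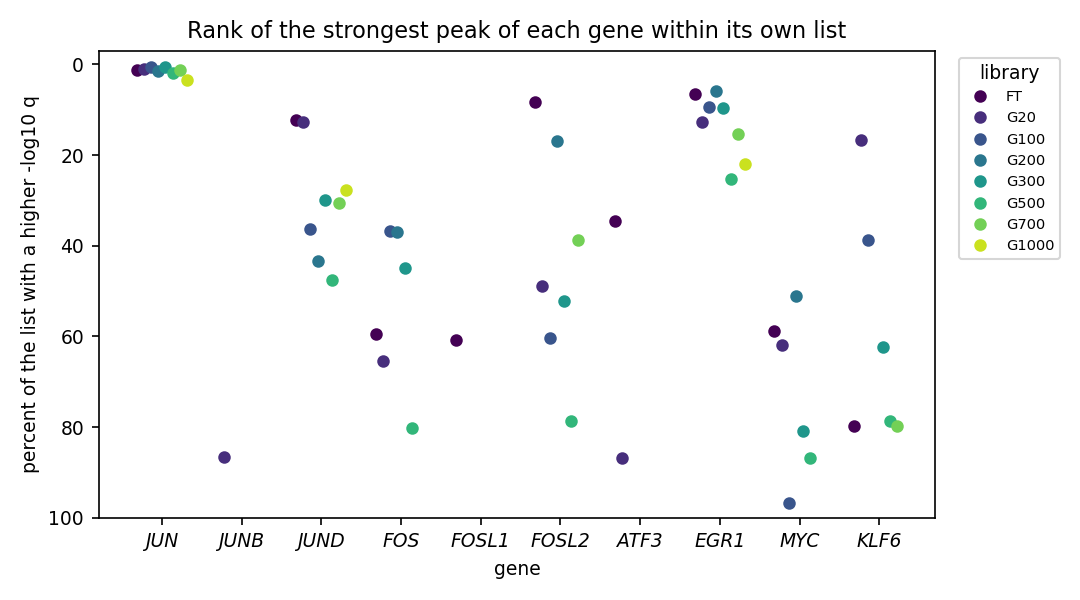
Percent of the peaks of the same list that have a higher −log10 q than the strongest peak of each gene, with 1 point per library (0 at the top is the strongest). JUN stays within 3.35% of the top in all 8 lists, while KLF6 runs from 16.7% to 79.7%.

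Reads could be tested between libraries where a region was called in all 8 of them with a read number in each, which held for 4220 regions and for JUN, JUND and EGR1 among the 10 genes. Expected reads came from the 4098 ordinary shared regions (placed chromosomes, away from centromere gaps and ends). Summed over the libraries JUN had 468 reads, more than all but 2.42% of the shared regions. EGR1 had 221 and JUND 144, beside a median of 160. Of 24 tests of 1 library against the other 7 at these 3 genes, 0 passed (two-sided exact binomial test, with Benjamini-Hochberg adjusted p over 33760 region and library pairs, of which 0.578% were called). An unadjusted p under 0.05 was found in 0 of the 24 as well, against 5.55% of all pairs, and the smallest was that of JUN in G100 (exact binomial p = 0.0768). Only regions that had passed the peak threshold in every library entered this test, so low values are missing from it. Its 0 therefore does not show that the fractions had equal reads.

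The intervals are those of the reads over the expected number, which includes the reads of the library itself. They do not bound the tested ratio of a library to the others. For JUN the reads over the expected number ran from 0.838 in FT (95% Poisson interval 0.649 to 1.06) to 1.24 in G100 (0.951 to 1.58). For EGR1 they ran from 0.851 in G1000 (0.504 to 1.34) to 1.20 in G200 (0.825 to 1.68). JUND ran from 0.804 in G300 (0.484 to 1.26) to 1.30 in FT (0.889 to 1.84). All 24 intervals included 1, and they cover only the counting error of the library's own reads. At JUND they reached from 0.406 (G500) to 1.84 (FT) and at EGR1 from 0.504 (G1000) to 1.68 (G200). Ratios to the expected number inside these intervals are not excluded by the reads.

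**Figure D4:**
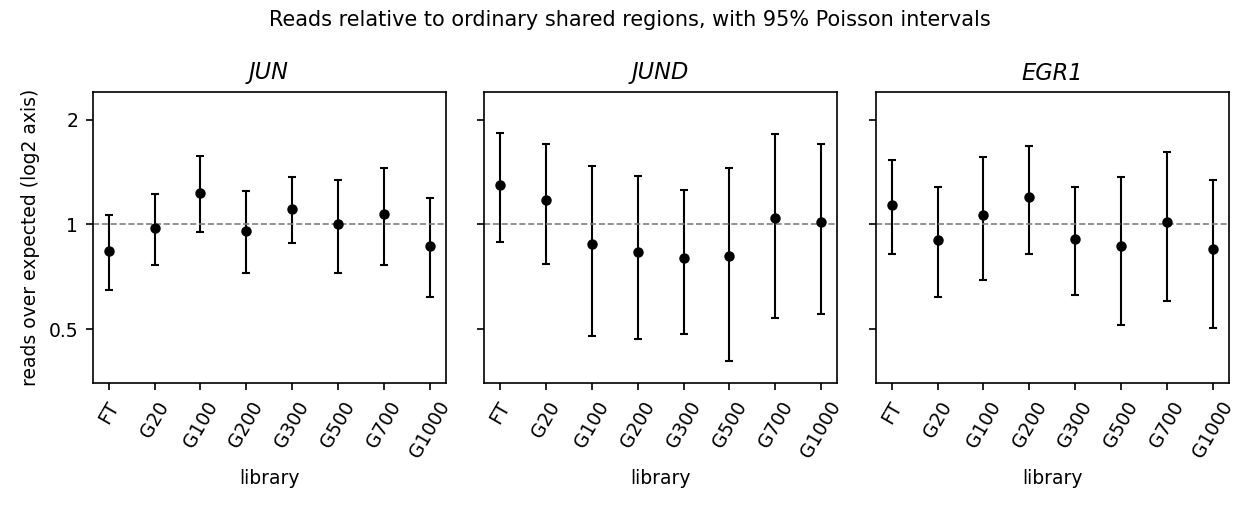
Reads at JUN, JUND and EGR1 over the number expected from ordinary shared regions (log2 axis), by library, with 95% Poisson intervals as bars. The points lie between 0.804 and 1.30, and every interval crosses 1 (dashed).

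The low-salt side (FT, G20 and G100) and the high-salt side (G500, G700 and G1000) were compared by their summed reads. Here too only regions that had passed the peak threshold in every library entered, so low values are missing. JUN had 204 and 123 reads, a scaled ratio of 1.013, EGR1 had 101 and 54 (1.14), and JUND had 73 and 37 (1.20). None of the 3 was called (exact binomial test, smallest unadjusted p = 0.378, adjusted p = 1 over 4220 regions, of which 0.332% were called and 4.93% had an unadjusted p under 0.05). The lower raw reads of the 3 highest-salt libraries at JUN and EGR1 went with fewer reads over ordinary regions. Over the 7 salt libraries Spearman's rho with salt was −0.29 for JUN (exact permutation p = 0.556), −0.46 for EGR1 (exact permutation p = 0.302) and −0.11 for JUND (exact permutation p = 0.840). Adjusted over the 4220 regions these were 0.956, 0.932 and 0.982 in the exact permutation test, and 0% of all regions passed, while 5.88% had an unadjusted p under 0.05. The 7 libraries allow 5040 orders, too few for a single region to pass alone after adjustment over 4220. The lack of calls therefore does not show that a trend was absent. Scaled to the genome background of each list, rho was −0.82 for JUN (exact permutation p = 0.0341, adjusted p = 0.672), −0.75 for EGR1 (exact permutation p = 0.0663, adjusted p = 0.672) and −0.32 for JUND (exact permutation p = 0.498, adjusted p = 0.859).

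Another scaling changed 2 of these results. With reads scaled to the genome background of each list, JUN in FT was 0.579 times the other 7 libraries (exact binomial test, adjusted p = 0.00122) and EGR1 in G200 was 1.99 times them (adjusted p = 0.0222, exact binomial test). That scaling moved the median of all shared regions as well, to 0.719 times in FT (−0.48 on the log2 scale) and 1.55 times in G200 (0.63), and the share of regions called rose to 12.9% in FT and 19.2% in G200, with 4.48% over all pairs. Scaled to ordinary regions, the same ratios were 0.810 and 1.23.

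Genes called in fewer libraries were compared among the libraries that called them, a test added after the data had been seen. For FOS, FOSL2, ATF3, MYC and KLF6 it gave 26 tests in 5 regions, and 0 passed (exact binomial test, adjusted over 103099 region and library pairs, of which 0.178% were called). The 2 ATF3 tests are the same comparison seen from each side. The pairs include regions called in all 8 libraries. Of them, 69339 came from regions called in 2 to 7, whose own share was not analysed here. A single test had an unadjusted p under 0.05, against 3.14% of all pairs, that of FOSL2 in FT, where reads were 1.53 times those of the other 6 calling libraries (exact binomial p = 0.0456, adjusted p = 1). The KLF6 reads of G20 were 1.57 times those of the other 4 (exact binomial p = 0.0907, adjusted p = 1). Over the expected number, which includes the reads of G20 itself, KLF6 in G20 was 1.39 (95% Poisson interval 0.880 to 2.08). Equal reads were not outside that interval, and it does not bound the ratio of 1.57 to the other 4. The ATF3 reads of FT were 1.66 times those of G20 (exact binomial p = 0.236, adjusted p = 1). These differences moved with the scaling. With background scaling FOSL2 in FT was 1.08 times the other calling libraries (exact binomial p = 0.749), FOSL2 in G200 was 2.33 times them (exact binomial p = 0.000963, adjusted p = 0.0627) and KLF6 in G20 was 1.97 times them (exact binomial p = 0.0102, adjusted p = 0.272). Under it KLF6 in FT was 0.456 times the others (exact binomial p = 0.00988, adjusted p = 0.267). Libraries without a call have no read number and do not enter this test. Those that enter had passed the peak threshold, so low values are missing from it. Its 0 therefore does not show that the fractions had equal reads.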

How the data were processed

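ATAC-seq was measured in 8 fractions of 293T cells, 1 library each, grouped by the labels' titles. The submitters' processing notes name Bowtie2 2.2.6, MACS2 2.2.1 and HOMER, and the builds hg19 and mm10. For filters and calling settings, the sources used here give nothing. Each list deposited by the authors holds a peak score, a fold enrichment (a ratio to the local background) and, for each peak, −log10 values of p and q. Depth is not listed and was recovered. MACS2 adds 1 to pileup and background before dividing them and takes p from a Poisson distribution, so a whole pileup (called reads, at most 3000) was sought that gave the −log10 p within 0.001. A single pileup was found for 99.3% to 100.0% of the peaks of a list. The lowest background shared by at least 20 peaks, 0.239 (G200) to 0.662 reads (FT), is the genome background.

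Peaks sharing at least 1 bp were merged. The highest pileup per region and library was compared with scipy 1.17.1 and checked on simulated data. Ordinary regions lie over 1 Mb from the longest peak-free stretch and over 20 kb from chromosome ends. Intervals are 95% exact Poisson intervals. All 10 members are named. Members, motifs and tests were chosen with earlier results of these data known. Strands of FOSL1 and MYC are textbook knowledge, and the others were checked against RefSeq. Alternatives were other windows, thresholds, list lengths, scalings and left-out libraries. Start sites of other genes of the pathway were not used here, since the gene table at hand is in another build.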

Additional observations from a re-analysis of the deposited data

How the results depend on the processing

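Counts of genes with a peak depended on what counted as a peak at a promoter. When the peak had to span the start site, 30 of the 80 pairs remained in place of 53, and 1 gene (JUN) in place of 3 was called in all 8 libraries. The counts were then 5 in G20, 4 in G100, 1 in G500, 2 in G700 and 1 in G1000. At equal list length, where each list keeps its 8102 strongest peaks, 34 pairs were left, FT held 5 genes, G20 held 4, and G300 and G500 held 3 each, and JUN, JUND and EGR1 were still called in all 8. FT and G20 then no longer held more of the genes than G100, which held 6. The other counts by library, and all counts with a window of 1 kb, with the summit in the window or with a −log10 q of at least 2, stayed within 1.5 times. The number of genes with a library that differed from the rest was 0, and 2 with background scaling, and in the test among calling libraries it was 0, and 1 (JUN) with background scaling. It stayed 0 with median ratio scaling, with the peak nearest the median summit, and without G200 or FT, where these were run. The comparison of sides and the trend gave 0 under each alternative that was run. For the trend, the salt libraries allow too few orders for a region to pass alone, so its 0 does not show that a trend was absent. The other read tests took only regions that had passed the peak threshold, so their 0 does not show equal reads. No paired analysis was possible because each fraction has 1 library. At 8 to 43 reads per summit outside JUN, counting error limits each single value.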
